A study of Mus musculus with 6 samples.

Results

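The type I interferon response was read in these livers through 37 interferon-stimulated genes. They are antiviral effectors, sensors and signal factors, listed by name and matched by Ensembl ID in the GRCm38 annotation. The list was chosen with earlier results of these data known. All 37 matched 1 row each among the 54532 gene rows of the count table, and all 37 had enough counts to be tested. Liver RNA came from 3 Cd44 KO mice, homozygous for the targeted allele of the strain B6.Cg-Cd44tm1Hbg/J and so lacking CD44 in every cell type, and from 3 WT mice. CD44 is a surface receptor for hyaluronan that is carried by many leukocytes. For 10 days the mice of both genotypes drank a Lieber-DeCarli diet whose ethanol content was 5% by volume; on day 11 they were gavaged with ethanol at 5 g/kg and killed 9 hours later. No mouse without ethanol was analysed here, and neither age nor sex was given in the sources used here. Poly(A) RNA was sequenced as 1 library per mouse, with 15429784 to 19293777 reads assigned to genes.

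Type I interferons are secreted by cells that sense viral or misplaced nucleic acid, and act on neighbouring cells through the receptor IFNAR1/IFNAR2. The receptor's kinases JAK1 and TYK2 phosphorylate STAT proteins, among them STAT2, which joins IRF9 in the complex ISGF3. ISGF3 binds the interferon-stimulated response element (ISRE) in front of its target genes, many of which block viral replication or feed back on the pathway. In liver both hepatocytes and the resident macrophages, Kupffer cells, carry the receptor and can mount this response.

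The core of the ISRE, GAAANNGAAA on either strand, was looked for from 250 bases before to 50 bases after each gene's start (RefSeq, GRCm38.p6); 28 of the 37 genes were matched in that table. The core was present for 15 of the 28 genes, or 53.6%, and for 4.0% of 27025 genes with a window of the same length. Related lists held it too, at 43.2% of 44 other interferon-stimulated genes and 63.6% of 11 genes mainly induced by interferon gamma. The second element searched was the GAS element TTCNNNGAA, which reads the same on both strands and is bound by STAT dimers. It was present for 6 of the 28 genes, or 21.4%, for 9.6% of all genes with a window, for 6.8% of the other interferon-stimulated genes and for 36.4% of the interferon gamma genes. In 12 of the 15 genes a core lay before the start, from 14 to 222 bases upstream; in the other 3, Ddx58, Eif2ak2 and Ifih1, it lay within the first transcribed bases. The windows of Apol9a and Apol9b were identical at 278 of 278 bases once shifted by 22 bases, and those of Ifit3 and Ifit3b at 201 of 268 bases, or 75.0%. Shown here, with the ISRE core in capitals, are the 200 bases before the RefSeq start of the genes on which the results turn. They are 4 genes with a core and a higher mean in Cd44 KO livers, and Ifi44, Rsad2 and Bst2. Ifi44 had the largest fold change and no core in its window, and Rsad2 and Bst2 were highest in a WT mouse. For Apol9a, Ifit1 and Ifi44 the RefSeq start lies inside the gene span given below, which follows GENCODE M21. Overlapping cores run together as 1 stretch of capitals, as in Isg15, whose 3 cores follow each other. In Bst2 the GAS element overlaps the first core.
Apol9a, chr15:77411081-77411280, minus strand: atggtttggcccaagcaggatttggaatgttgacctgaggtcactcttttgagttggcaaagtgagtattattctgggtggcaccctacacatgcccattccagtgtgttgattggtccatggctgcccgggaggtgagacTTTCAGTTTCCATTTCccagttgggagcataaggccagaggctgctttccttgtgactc
Ifit1, chr19:34640689-34640888, plus strand: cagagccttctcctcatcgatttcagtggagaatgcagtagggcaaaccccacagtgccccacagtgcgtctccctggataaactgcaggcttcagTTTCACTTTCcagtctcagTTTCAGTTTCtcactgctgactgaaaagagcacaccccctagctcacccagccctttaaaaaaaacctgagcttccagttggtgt
Ifit3, chr19:34583329-34583528, plus strand: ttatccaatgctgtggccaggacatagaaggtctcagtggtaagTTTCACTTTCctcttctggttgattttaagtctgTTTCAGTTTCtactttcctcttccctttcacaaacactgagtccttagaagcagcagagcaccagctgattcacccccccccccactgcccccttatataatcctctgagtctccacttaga
Isg15, chr4:156200819-156201018, minus strand: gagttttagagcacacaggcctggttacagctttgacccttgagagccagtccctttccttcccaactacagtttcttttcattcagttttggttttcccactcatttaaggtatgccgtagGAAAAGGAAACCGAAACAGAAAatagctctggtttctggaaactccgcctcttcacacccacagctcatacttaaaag
Ifi44, chr3:151749911-151750110, minus strand: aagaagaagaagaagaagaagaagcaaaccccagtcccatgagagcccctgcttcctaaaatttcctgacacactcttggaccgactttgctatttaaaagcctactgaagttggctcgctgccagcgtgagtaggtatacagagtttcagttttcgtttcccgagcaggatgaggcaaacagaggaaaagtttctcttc
Rsad2, chr12:26456453-26456652, minus strand: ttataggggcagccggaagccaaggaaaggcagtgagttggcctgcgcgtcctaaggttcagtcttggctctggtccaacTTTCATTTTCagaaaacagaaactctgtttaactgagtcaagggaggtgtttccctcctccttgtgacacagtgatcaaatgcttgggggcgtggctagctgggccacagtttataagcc
Bst2, chr8:71537473-71537672, minus strand: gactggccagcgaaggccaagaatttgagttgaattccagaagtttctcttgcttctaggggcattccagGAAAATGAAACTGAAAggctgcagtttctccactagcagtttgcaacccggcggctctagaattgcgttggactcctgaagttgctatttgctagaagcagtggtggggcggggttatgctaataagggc
These matches describe the letters of the windows only. The 15 genes with a core had a median log2 fold change of 0.52 (−0.44 to 1.25), and the 13 genes with a window but no core had a median of 0.50 (−0.16 to 1.45).

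Most interferon-stimulated genes had higher levels in the Cd44 KO livers. Of the 37 genes, 34 had a higher mean and 3, Irf7, Rsad2 and Bst2, a lower one, with a median log2 fold change of 0.52 (range −0.44 to 1.45). Over all 14145 genes tested, 48.9% had a higher mean in Cd44 KO livers and the median log2 fold change was −0.01. Levels are CPM, that is, counts relative to the TMM-scaled library size. Every log2 fold change is Cd44 KO over WT, and the value after ± is its standard error. In bulk liver, a difference in the number of cells of a type and a difference in RNA per cell cannot be told apart.

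None of the 37 genes passed an adjusted p of 0.05 over all genes in edgeR's quasi-likelihood test, where 2 genes did so in all (0.0141%); the smallest adjusted p among the 37 was 0.217. At an unadjusted p under 0.05 in edgeR, 24 of the 37 were higher, or 64.9%, against 5.22% of all genes, and 0 were lower, against 7.59% of all genes. All 3 Cd44 KO mice lay above all 3 WT mice for 19 genes, or 51.4%, which held for 8.81% of all genes. The reverse held for 0 of the 37 genes and for 9.42% of all genes. These shares describe a list chosen with earlier results of these data known, and the list was not tested. DESeq2 called 8 of the 37 at an adjusted p of 0.05, all higher: Apol9a, Apol9b, Herc6, Ifi44, Ifit1, Ifit3, Usp18 and Xaf1. Over all genes it called 2.38% in both directions together, with 121 genes higher and 209 lower. limma-voom called none of the 37 and 0 genes in all, with 22 of the 37 at an unadjusted p under 0.05. In edgeR, the number at an unadjusted p under 0.05 fell to 15 without Cd44 KO mouse 1 and to 13 without Cd44 KO mouse 3. The share of all genes at that p is not given for limma-voom or for the edgeR fits without each mouse, so these counts have no background beside them. DESeq2 calls numbered 4, 13 and 1 without Cd44 KO mice 1, 2 and 3, and 5, 7 and 4 without WT mice 1, 2 and 3. The same fits called 142, 214 and 58 genes in all without Cd44 KO mice 1, 2 and 3, and 187, 793 and 232 without WT mice 1, 2 and 3, against 330 with all mice. Apol9a was called in all 6 fits, Apol9b and Ifi44 in 5, Usp18 in 4 and Ifit3 in 3. In edgeR, Apol9a alone passed the threshold without WT mouse 2 (adjusted p = 0.0497, with 151 genes called in all) and with no filter on low counts (adjusted p = 0.0369).

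**Figure D1:**
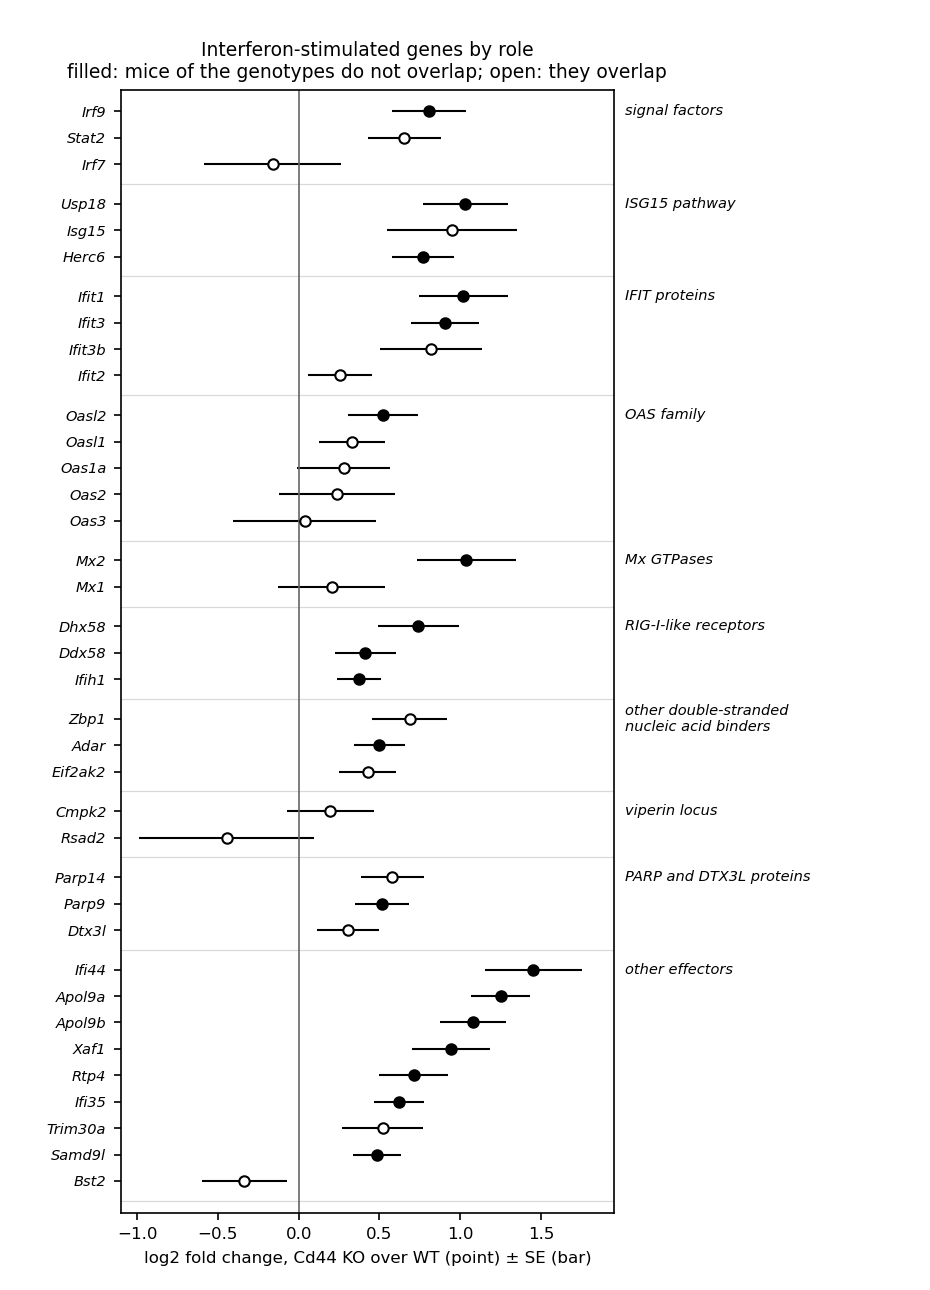
Log2 fold change of each of the 37 interferon-stimulated genes, Cd44 KO over WT, with its standard error as a bar, grouped by role; filled points are genes whose 3 Cd44 KO mice do not overlap the 3 WT mice. Points run from −0.44 for Rsad2 to 1.45 for Ifi44, and 34 of 37 lie right of 0.

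Of the signal factors, Irf9, the DNA-binding subunit of ISGF3, and Stat2 had higher means in Cd44 KO livers, and Irf7 did not. Irf9 (ENSMUSG00000002325; chromosome 14, 55603571 to 55610030) had 60.5, 48.2 and 72.1 CPM in Cd44 KO livers, against 45.4, 31.7 and 26.3 CPM in WT livers. Every Cd44 KO mouse lay above every WT mouse, though Cd44 KO mouse 2 and WT mouse 1 came within 3 CPM of each other. The log2 fold change was 0.81 ± 0.23 (edgeR adjusted p = 0.237, DESeq2 adjusted p = 0.0537). Irf9 shares 123 exon bases with Rnf31 on the same strand, and reads there could count for either gene. Stat2, the partner of Irf9 in ISGF3, had 128, 65.6 and 98.9 CPM in Cd44 KO livers and 56.2, 60.7 and 68.6 CPM in WT livers. Cd44 KO mouse 2 lay among the WT mice, and the log2 fold change was 0.65 ± 0.23 (edgeR adjusted p = 0.301). Irf7, the factor that drives interferon alpha transcription, had 43.7, 44 and 75 CPM in Cd44 KO livers and 41.5, 37.7 and 102 CPM in WT livers. Within each genotype mouse 3 was the highest, and the log2 fold change was −0.16 ± 0.43 (edgeR adjusted p = 0.918).

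The ISG15 pathway attaches the ubiquitin-like protein ISG15 to other proteins, and all 3 of its genes had higher means in Cd44 KO livers. Usp18, the protease that removes ISG15 and also restrains the interferon receptor (ENSMUSG00000030107; chromosome 6, 121245906 to 121270917), had 20.9, 20.9 and 38.9 CPM in Cd44 KO livers, against 11.3, 13.6 and 14.5 CPM in WT livers. Cd44 KO mouse 3 stood well above the other 2 Cd44 KO mice, all 3 of which exceeded the WT mice. Its log2 fold change was 1.03 ± 0.26 (edgeR adjusted p = 0.217, DESeq2 adjusted p = 0.0258). Herc6, the ligase that attaches ISG15 in mice, had 16.4, 11.2 and 16.2 CPM in Cd44 KO livers, against 7.77, 9.26 and 8.6 CPM in WT livers. The genotypes did not overlap, with Cd44 KO mouse 2 the nearest to WT (log2 fold change 0.77 ± 0.19, edgeR adjusted p = 0.217, DESeq2 adjusted p = 0.0495). Herc6 shares 1269 exon bases on the same strand, and 23.8% of its 50-base words, with the transcript model Gm45193, which had 0 counts in all libraries, so its counts are uncertain. Isg15 itself had 14, 11.4 and 24.6 CPM in Cd44 KO livers and 8.8, 4.63 and 12.3 CPM in WT livers. WT mouse 3 lay above Cd44 KO mouse 2, so the groups overlapped (log2 fold change 0.95 ± 0.40, edgeR adjusted p = 0.39).

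IFIT1 binds viral RNA that lacks the host's cap methylation, and 3 of the 4 IFIT genes had log2 fold changes of 0.82 to 1.02. Ifit1 (ENSMUSG00000034459; chromosome 19, 34640871 to 34650009) had 25.1, 15.1 and 34.6 CPM in Cd44 KO livers, against 11.6, 13.1 and 12.1 CPM in WT livers. The WT mice lay close together, while the Cd44 KO mice ranged widely, with mouse 2 just above WT (log2 fold change 1.02 ± 0.28, edgeR adjusted p = 0.231, DESeq2 adjusted p = 0.0387). Ifit3 (ENSMUSG00000074896; chromosome 19, 34583531 to 34588731) had 27.7, 20.4 and 33.3 CPM in Cd44 KO livers and 17.3, 13.6 and 12.5 CPM in WT livers, without overlap. The log2 fold change was 0.91 ± 0.21 (edgeR adjusted p = 0.217, DESeq2 adjusted p = 0.0195). Its neighbour and near-copy Ifit3b, 19.2 kb away, had 6.76, 4.4 and 7.81 CPM in Cd44 KO livers and 4.67, 3.58 and 2.44 CPM in WT livers, with overlap (0.82 ± 0.32, edgeR adjusted p = 0.339). Ifit3 shares 51.2% of its 50-base words with other transcripts, all of these with Ifit3b, so the split of reads between the pair is uncertain. Added together the pair gave a log2 fold change of 0.89 ± 0.22 (edgeR adjusted p = 0.218, DESeq2 adjusted p = 0.0269). Ifit2, at the other end of the same cluster 7.1 kb from Ifit3, had 10.7, 9.5 and 13.8 CPM in Cd44 KO livers and 10.7, 8.21 and 9.52 CPM in WT livers. Its groups overlapped, and its log2 fold change was 0.25 ± 0.20 (edgeR adjusted p = 0.657).

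The OAS genes encode sensors of double-stranded RNA, of which the enzymes make the oligoadenylates that switch on RNase L. All 5 had higher means in Cd44 KO livers, by a median log2 fold change of 0.28, with 1 of them at an unadjusted p under 0.05. Oasl1, an OAS-like protein without that enzyme activity and the member with the highest CPM, had 32.4, 26.3 and 41.3 CPM in Cd44 KO livers and 23.5, 23.4 and 32.5 CPM in WT livers. WT mouse 3 lay as high as Cd44 KO mouse 1 (log2 fold change 0.33 ± 0.20, edgeR adjusted p = 0.558). Oasl2, 11.0 kb away, did not overlap between genotypes, with 13.8, 10.8 and 15.6 CPM in Cd44 KO livers and 10.5, 7.1 and 10.3 CPM in WT livers (0.52 ± 0.21, edgeR adjusted p = 0.368). Oas1a, Oas2 and Oas3 lie in 1 cluster on chromosome 5 and overlapped between genotypes, with log2 fold changes of 0.28 ± 0.29, 0.24 ± 0.36 and 0.04 ± 0.44. All 5 OAS genes were lowest in WT mouse 2 and highest in Cd44 KO mouse 3. Without WT mouse 2 the log2 fold changes of Oas2 and Oas3 were −0.01 and −0.29, and without Cd44 KO mouse 3 they were −0.01 and −0.27. Oas1a shares 57.6% of its 50-base words with Oas1g and is uncertain for that reason.

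The Mx GTPases trap viral ribonucleoproteins, and both genes had a higher mean in Cd44 KO livers. Laboratory strains of mice commonly carry disrupted Mx alleles, and Mx2 (ENSMUSG00000023341; chromosome 16, 97535308 to 97560900) is annotated as a polymorphic pseudogene. Mx2 had 9.02, 5.95 and 13 CPM in Cd44 KO livers, against 4.78, 3.58 and 5.14 CPM in WT livers. Every Cd44 KO mouse lay above every WT mouse, mouse 2 by less than 1 CPM (log2 fold change 1.04 ± 0.31, edgeR adjusted p = 0.245, DESeq2 adjusted p = 0.0694). Mx1, 72.4 kb away, had 2.52, 2.15 and 3.83 CPM in Cd44 KO livers and 2.34, 1.82 and 3.1 CPM in WT livers, with overlap. Its log2 fold change was 0.20 ± 0.33 (edgeR adjusted p = 0.86) and became −0.06 without Cd44 KO mouse 3. The difference between Mx2 and Mx1 was not tested.

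All 3 RIG-I-like receptors, the cytosolic sensors of viral RNA, were higher in every Cd44 KO mouse than in every WT mouse. Ifih1, which encodes MDA5 (ENSMUSG00000026896; chromosome 2, 62595798 to 62646255), had 52.1, 45.5 and 60.3 CPM in Cd44 KO livers, against 44, 38.3 and 39.8 CPM in WT livers. The margin was narrow, between Cd44 KO mouse 2 and WT mouse 1 (log2 fold change 0.37 ± 0.14, edgeR adjusted p = 0.315). Ddx58, which encodes RIG-I, had 38.4, 31.7 and 53.4 CPM in Cd44 KO livers and 31.2, 30.2 and 31.2 CPM in WT livers (0.41 ± 0.19, edgeR adjusted p = 0.409). Cd44 KO mouse 2 lay just above the highest WT mice, and without Cd44 KO mouse 3 the log2 fold change was 0.19. Dhx58, which encodes LGP2, a regulator of the other two, had 16.2, 16.8 and 26 CPM in Cd44 KO livers and 14.8, 8.73 and 11.7 CPM in WT livers. Its log2 fold change was the largest of the 3 at 0.74 ± 0.25 (edgeR adjusted p = 0.294).

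The other binders of double-stranded nucleic acid were also higher on average, all 3 at an unadjusted p under 0.05. Adar, the enzyme that edits adenosines in double-stranded RNA and so keeps self RNA from the sensors (ENSMUSG00000027951; chromosome 3, 89715022 to 89753446), had 40, 32.7 and 42.9 CPM in Cd44 KO livers. In WT livers it had 31.4, 27 and 23.2 CPM, and the genotypes did not overlap (log2 fold change 0.50 ± 0.16, edgeR adjusted p = 0.27). Adar shares 1365 exon bases with Chrnb2 on the opposite strand, a gene with 327 counts over the 6 libraries, against 3333 for Adar. Zbp1, the sensor of Z-form nucleic acid that can start necroptosis, had 12.9, 8.35 and 13.6 CPM in Cd44 KO livers and 6.68, 6.45 and 8.45 CPM in WT livers. Cd44 KO mouse 2 lay just under WT mouse 3 (0.69 ± 0.23, edgeR adjusted p = 0.29). Eif2ak2, the kinase PKR that halts translation, had 27.4, 23.8 and 32.1 CPM in Cd44 KO livers and 25.1, 18.4 and 18.4 CPM in WT livers, with overlap (0.43 ± 0.18, edgeR adjusted p = 0.371). Ifih1 and Zbp1 are the members on the same chromosome as the targeted gene, 40.2 and 70.3 Mb from Cd44.

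A group of 4 genes, Rsad2, Cmpk2, Irf7 and Bst2, was highest in WT mouse 3 instead, and 3 of them were the 3 genes with a lower mean in Cd44 KO livers. Rsad2 (viperin, which makes a chain-terminating nucleotide; ENSMUSG00000020641, chromosome 12, 26442746 to 26456452) had 17.4, 19.2 and 31 CPM in Cd44 KO livers, against 21.3, 13 and 57.5 CPM in WT livers. WT mouse 3 held far more than any other mouse, and the other 2 WT mice lay among or below the Cd44 KO mice (log2 fold change −0.44 ± 0.54, edgeR adjusted p = 0.807). Cmpk2, a mitochondrial nucleotide kinase that lies 12.8 kb away on the opposite strand, had 12.1, 12.6 and 15.7 CPM in Cd44 KO livers and 11.5, 7.56 and 16.2 CPM in WT livers. The spread among WT mice covered all 3 Cd44 KO mice (0.20 ± 0.27, edgeR adjusted p = 0.83), and without WT mouse 2 the log2 fold change was −0.03. Bst2 (tetherin, which holds budding virions at the cell surface; ENSMUSG00000046718, chromosome 8, 71534255 to 71537456) had 141, 137 and 150 CPM in Cd44 KO livers and 140, 133 and 267 CPM in WT livers. Apart from WT mouse 3 the mice of both genotypes had nearly the same level (−0.34 ± 0.26, edgeR adjusted p = 0.66). Without WT mouse 3 the log2 fold changes of Irf7, Rsad2 and Bst2 were 0.45, 0.39 and 0.06 (edgeR adjusted p = 0.531, 0.679 and 0.889). All 37 genes then had a higher mean in Cd44 KO livers. The 4 genes were grouped by being highest in that mouse, so leaving it out had to raise their log2 fold changes. The share of all genes with a higher mean in that fit is not given.

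**Figure D2:**
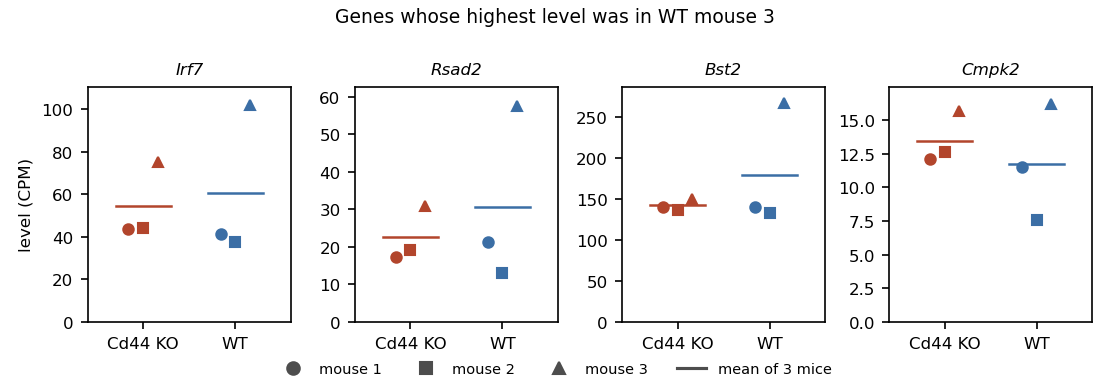
Level in CPM of the 4 genes whose highest value was in WT mouse 3, with Cd44 KO mice on the left and WT mice on the right of each panel, 1 symbol per mouse and a line at the mean of 3. In Bst2, WT mouse 3 is at 267 CPM and the other 5 mice lie between 133 and 150 CPM.

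Parp14, Parp9 and Dtx3l lie side by side on chromosome 16, and PARP9 and DTX3L act together as a ubiquitin ligase. All 3 had higher means in Cd44 KO livers. Parp14, a mono-ADP-ribosyltransferase (ENSMUSG00000034422; chromosome 16, 35832874 to 35871544), had 89.8, 57 and 81.1 CPM in Cd44 KO livers and 58.9, 50.8 and 42.6 CPM in WT livers. Cd44 KO mouse 2 lay under WT mouse 1 (log2 fold change 0.58 ± 0.19, edgeR adjusted p = 0.286). Parp9 had 70.3, 49.4 and 72.2 CPM in Cd44 KO livers and 44.9, 48.9 and 40.2 CPM in WT livers (0.52 ± 0.17, edgeR adjusted p = 0.274). Its genotypes were separated by 49.4 CPM in Cd44 KO mouse 2 and 48.9 CPM in WT mouse 2, so the separation was small. Dtx3l had 75.2, 49.3 and 65.8 CPM in Cd44 KO livers and 46.4, 62.4 and 45.3 CPM in WT livers, with overlap (0.30 ± 0.19, edgeR adjusted p = 0.565). Parp9 and Dtx3l share 458 exon bases on opposite strands, and reads from there cannot be told apart where counting ignores strand.

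The clearest differences lay among the remaining effectors, above all in the apolipoprotein L genes Apol9a and Apol9b. Apol9a (ENSMUSG00000057346; chromosome 15, 77403789 to 77411135) had 88, 68.3 and 104 CPM in Cd44 KO livers, against 30.7, 37.9 and 40.9 CPM in WT livers. The lowest Cd44 KO mouse was well above the highest WT mouse. Its log2 fold change was 1.25 ± 0.18 (edgeR adjusted p = 0.217, DESeq2 adjusted p = 9.32e-06), and its unadjusted p ranked 8 among all 14145 genes. Apol9b (ENSMUSG00000068246; chromosome 15, 77729039 to 77736382) had 102, 78.2 and 131 CPM in Cd44 KO livers, against 42, 57.7 and 47.3 CPM in WT livers, again without overlap. The log2 fold change was 1.08 ± 0.20 (edgeR adjusted p = 0.217, DESeq2 adjusted p = 0.00114). Apol9a shares 57.5% of its 50-base words with Apol9b, so reads may be split between them; the pair added together gave 1.16 ± 0.19 (edgeR adjusted p = 0.218, DESeq2 adjusted p = 7.33e-05). Both genes carry the stretch of 2 overlapping ISRE cores printed above.

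Ifi44, an interferon-induced cytoplasmic protein, had the largest fold change of the 37 genes. Ifi44 (ENSMUSG00000028037; chromosome 3, 151730922 to 151749960) had 9.41, 9.85 and 18 CPM in Cd44 KO livers, against 3.53, 4.69 and 5.34 CPM in WT livers. All 3 Cd44 KO mice exceeded the WT mice, and Cd44 KO mouse 3 stood apart from the other 2 (log2 fold change 1.45 ± 0.30, edgeR adjusted p = 0.217, DESeq2 adjusted p = 0.00289). Xaf1, a partner of the apoptosis inhibitor XIAP, had 14, 10.6 and 18.1 CPM in Cd44 KO livers and 8.31, 5.74 and 8.09 CPM in WT livers. There was no overlap (0.94 ± 0.24, edgeR adjusted p = 0.218, DESeq2 adjusted p = 0.0389). Ifi35, a binding partner of NMI, had 32.8, 28.1 and 40.1 CPM in Cd44 KO livers and 22.8, 22.6 and 20.3 CPM in WT livers (0.62 ± 0.15, edgeR adjusted p = 0.217, DESeq2 adjusted p = 0.0547). The WT values were tightly grouped and all lay under the Cd44 KO values. Rtp4, a receptor transporter protein, had 21.5, 17.5 and 26.8 CPM in Cd44 KO livers and 16.5, 10.8 and 12.8 CPM in WT livers (0.71 ± 0.21, edgeR adjusted p = 0.249). Its groups were separated by the small gap between Cd44 KO mouse 2 and WT mouse 1, and it shares 296 exon bases with the transcript model Gm45338. Samd9l, a restriction factor for poxviruses, also showed no overlap (0.49 ± 0.15, edgeR adjusted p = 0.257). Trim30a, a regulator of NF-kB signalling, overlapped between genotypes (0.52 ± 0.25, edgeR adjusted p = 0.434).

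**Figure D3:**
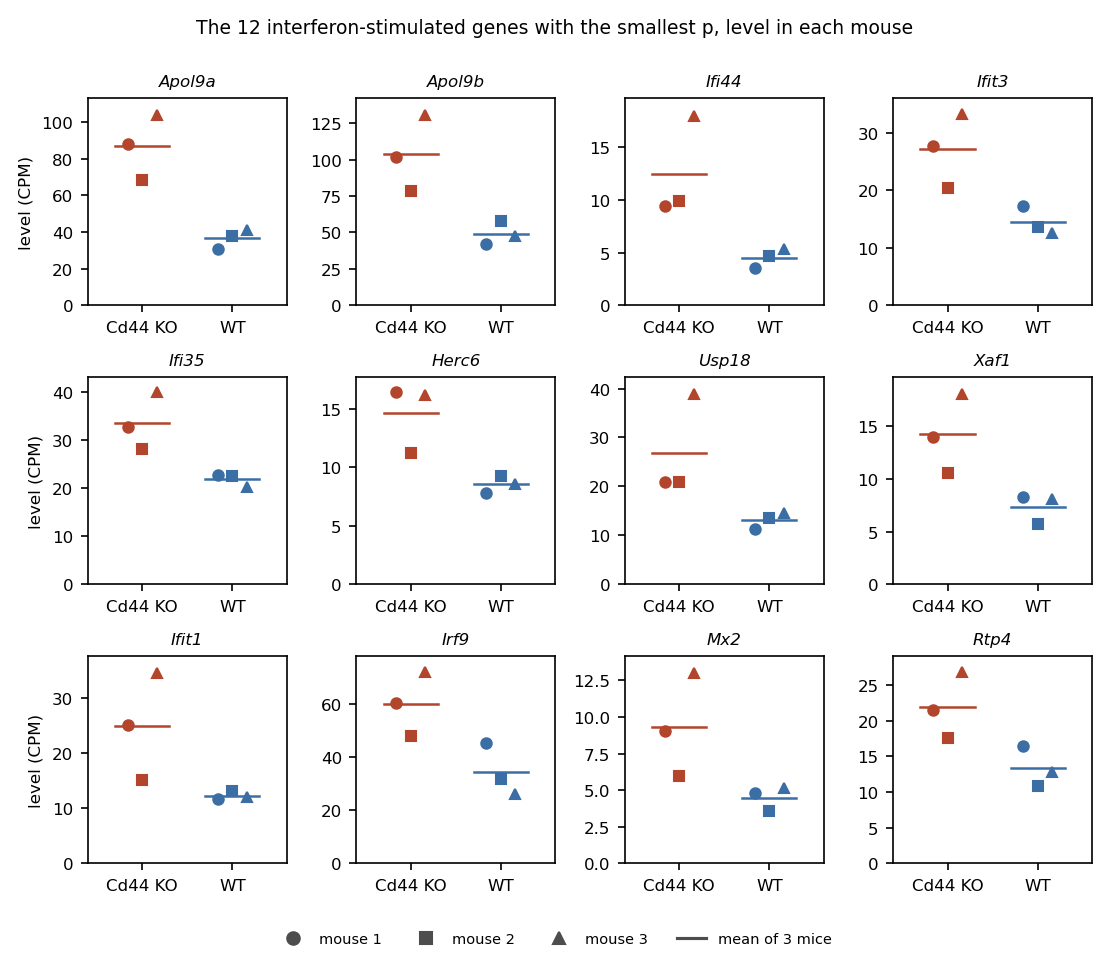
Level in CPM of the 12 interferon-stimulated genes with the smallest unadjusted p, with Cd44 KO mice on the left and WT mice on the right of each panel, 1 symbol per mouse and a line at the mean of 3. In all 12 panels the 3 Cd44 KO mice lie above the 3 WT mice. The 12 genes were picked by their p in these same mice, which favours such separation, and it held for 19 of all 37 genes. In Apol9a the Cd44 KO mice span 68.3 to 104 CPM and the WT mice 30.7 to 40.9 CPM.

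Per kilobase of exon, levels differed widely between the genes. Bst2 was the highest in both genotypes, with 158 CPM per kb in Cd44 KO livers and 199 CPM per kb in WT livers. Apol9b followed with 56.9 CPM per kb in Cd44 KO livers and 26.9 CPM per kb in WT livers. The lowest was Oas3, with 0.469 CPM per kb in Cd44 KO livers and 0.448 CPM per kb in WT livers. Ifi44 was also low, with 2.03 CPM per kb in Cd44 KO livers and 0.738 CPM per kb in WT livers.

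The order of the Cd44 KO mice was much the same from gene to gene, while that of the WT mice varied. Among the Cd44 KO mice, mouse 3 was the highest in 33 of the 37 genes and mouse 1 in the other 4, while mouse 2 was the lowest in 32. Over all genes tested, Cd44 KO mouse 3 was the highest of the Cd44 KO mice in 32.3%. The share in which Cd44 KO mouse 2 was the lowest is not given. The median over the 37 genes of log2 CPM minus the mean of the 6 mice was 0.31, −0.03 and 0.57 in Cd44 KO mice 1, 2 and 3, against −0.15, −0.46 and −0.31 in WT mice 1, 2 and 3. The 3 Cd44 KO medians lay above the 3 WT medians, and Cd44 KO mouse 2 lay closer to WT mouse 1 than to Cd44 KO mouse 1. Among WT mice, mouse 1 was the highest in 17 genes, mouse 3 in 15 and mouse 2 in 5, and mouse 2 was the lowest in 22. Over all genes tested, WT mouse 3 was the highest of the WT mice in 35.4% and WT mouse 2 the lowest in 34.9%.

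The spread between mice was larger in Cd44 KO livers for 22 of the 37 genes and larger in WT livers for 15. The median coefficient of variation of the 37 genes was 22.7% in Cd44 KO livers and 18.9% in WT livers, where all genes tested had 12.8% in Cd44 KO livers and 18.3% in WT livers. The median ratio of the highest to the lowest mouse was 1.58 among Cd44 KO mice and 1.39 among WT mice. In Usp18, Ifit1 and Mx2, for example, Cd44 KO mouse 3 was at 38.9, 34.6 and 13 CPM and Cd44 KO mouse 2 at 20.9, 15.1 and 5.95 CPM. The WT mice of the same genes lay within 11.3 to 14.5 CPM for Usp18, 11.6 to 13.1 CPM for Ifit1 and 3.58 to 5.14 CPM for Mx2. Without Cd44 KO mouse 3, the median log2 fold change of the 37 genes was 0.43 and 31 had a higher mean in Cd44 KO livers. Without Cd44 KO mouse 2 it was 0.68, with 34 higher.

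**Figure D4:**
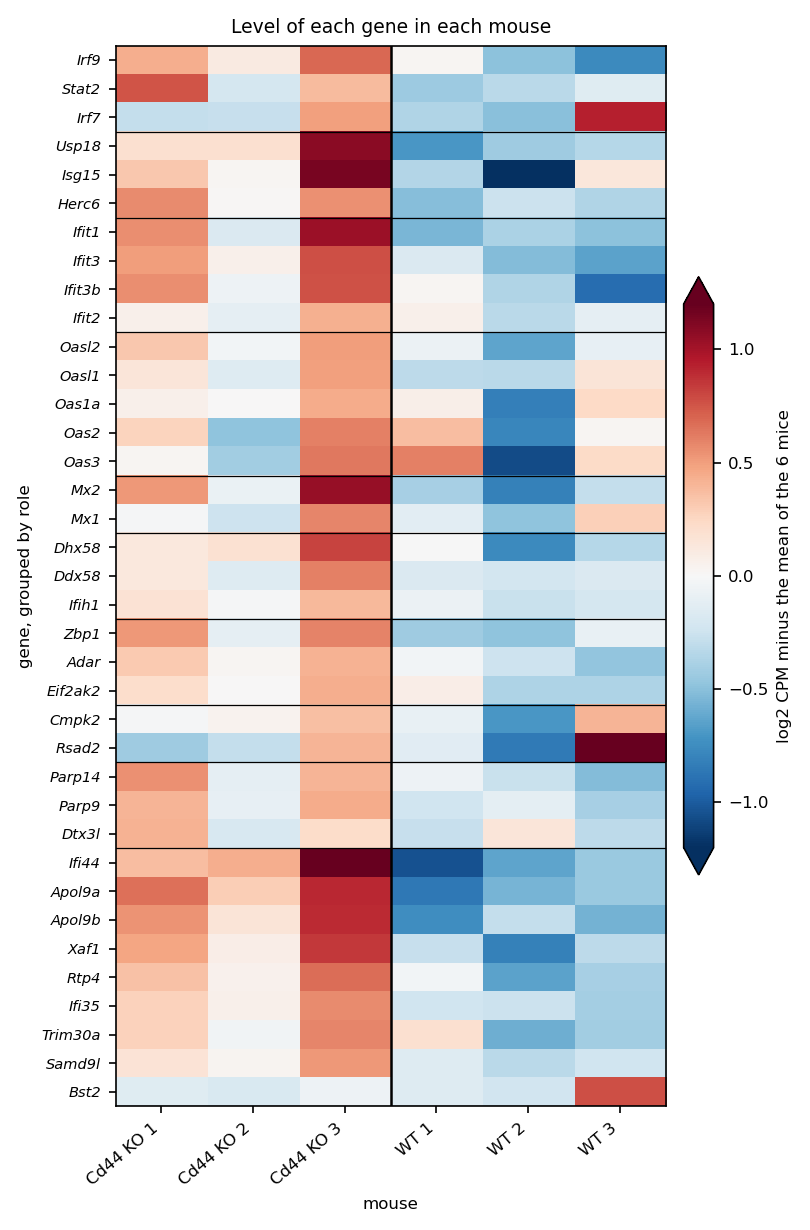
Level of each of the 37 genes in each mouse, as log2 CPM minus the mean of the 6 mice, with Cd44 KO mice in the left 3 columns, WT mice in the right 3, and lines between role groups. The column of Cd44 KO mouse 3 is the reddest, and Irf7, Rsad2 and Bst2 are red in WT mouse 3.

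Transcripts of the interferons themselves were at or near 0 in all livers. Of 18 type I interferon genes, 16 had 0 counts in every library; Ifnk had 1 count in Cd44 KO mouse 2 and 1 in WT mouse 2, and Ifnz had 1 count in WT mouse 3. Ifng had 1 count in Cd44 KO mouse 2 and 0 elsewhere, and Ifnl2 and Ifnl3 had 0 in every library. A count of 0 allows a level of up to 0.155 to 0.194 CPM (3 counts, over library sizes before TMM scaling) at these depths. A difference in interferon transcripts was therefore not detectable. This limit covers counting error only.

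Receptor genes more often had lower means in Cd44 KO livers, and kinase genes went both ways. Of 5 receptor genes tested, Ifnar2 had a higher mean in Cd44 KO livers (log2 fold change 0.19 ± 0.13) and 4 a lower one, among them Ifngr2, a chain of the interferon gamma receptor (−0.31 ± 0.12, edgeR adjusted p = 0.356). At an unadjusted p under 0.05 in edgeR, 2 of the 5 were lower and 0 higher. Over all genes, 7.59% were lower and 5.22% higher at that p. Il10rb, a chain shared by the interleukin 10 and interferon lambda receptors, had 7.03, 6.75 and 6.64 CPM in Cd44 KO livers, against 10.6, 8.86 and 10.6 CPM in WT livers (−0.56 ± 0.17, edgeR adjusted p = 0.247). The kinases Jak1, Jak2 and Tyk2 had log2 fold changes of 0.17 ± 0.12, −0.28 ± 0.12 and −0.28 ± 0.13. Of 6 brakes on the signal, 4 had lower means in Cd44 KO livers, with the phosphatases Ptpn6 and Ptpn1 at −0.43 ± 0.14 and −0.19 ± 0.14 and the feedback inhibitor Socs3 at 0.60 ± 0.31. None of these genes passed an adjusted p of 0.05 in edgeR or DESeq2.

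Genes that act before interferon is made more often had lower means. Of 13 sensors, adaptors and kinases upstream of interferon, 10 had lower means in Cd44 KO livers (median log2 fold change −0.41), with 4 lower and 0 higher at an unadjusted p under 0.05, against 7.59% lower and 5.22% higher over all genes. Ikbke, a kinase that activates IRF3 and IRF7, had 33.6, 25.7 and 26.6 CPM in Cd44 KO livers, against 55.5, 36 and 56.6 CPM in WT livers, without overlap (−0.79 ± 0.20, edgeR adjusted p = 0.217, DESeq2 adjusted p = 0.0379). Tmem173, which encodes STING, had 3.71, 3.3 and 3.35 CPM in Cd44 KO livers and 5.43, 4.56 and 5.34 CPM in WT livers, again without overlap (−0.57 ± 0.21, edgeR adjusted p = 0.314). Tlr7, the endosomal receptor for single-stranded RNA, overlapped between genotypes (−1.03 ± 0.43, edgeR adjusted p = 0.378). Mavs, the adaptor of the RIG-I-like receptors and the gene of this list with the highest CPM, was at 0.18 ± 0.14 (edgeR adjusted p = 0.661). Of the other IRF factors, Irf5 and Irf8, both abundant in myeloid cells, had log2 fold changes of −0.75 ± 0.21 and −0.79 ± 0.24 without overlap (edgeR adjusted p = 0.237 and 0.259). Irf5 shares 411 exon bases with Tnpo3 on the opposite strand. Irf3, the factor that first induces interferon beta, was at 0.12 ± 0.14, and Irf1 at 0.42 ± 0.21.

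Interferon-stimulated genes outside the 37 were less uniform. Of 49 others tested, 30 had higher means and 19 lower ones (median log2 fold change 0.16), with 8 higher, or 16.3%, and 3 lower at an unadjusted p under 0.05 in edgeR, against 5.22% higher and 7.59% lower over all genes. DESeq2 called 4 of the 49, or 8.16%, all higher, against 2.38% of all genes in both directions together (121 genes higher and 209 lower). Nmi, a partner of IFI35, had 24.5, 22.8 and 22.8 CPM in Cd44 KO livers, against 13.9, 16.9 and 15.5 CPM in WT livers (log2 fold change 0.60 ± 0.13, DESeq2 adjusted p = 0.0324). Unlike most of the 37 genes, Nmi was at nearly the same level in the 3 Cd44 KO mice. Trim34a and Trim12c, from the cluster of TRIM genes that includes Trim30a, had log2 fold changes of 0.95 ± 0.23 and 0.75 ± 0.19 (DESeq2 adjusted p = 0.04 and 0.048), and the fourth was Rnf213, a large ubiquitin ligase named after its values were seen (0.69 ± 0.19, DESeq2 adjusted p = 0.0463). Lgals9, a galectin and the gene of this list with the highest CPM, was at 0.20 ± 0.15 (edgeR adjusted p = 0.645). Ly6e, also named after its values were seen, had 305, 303 and 314 CPM in Cd44 KO livers and 345, 425 and 908 CPM in WT livers. All Cd44 KO mice lay under all WT mice and, as in Bst2, WT mouse 3 was far above the rest (−0.86 ± 0.34, edgeR adjusted p = 0.358).

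Genes mainly induced by interferon gamma went both ways, more often higher. Of 15 tested, 11 had higher means in Cd44 KO livers (median log2 fold change 0.25). At an unadjusted p under 0.05 in edgeR, 4 were higher, or 26.7%, and 1 lower, against 5.22% higher and 7.59% lower over all genes. Without overlap, 4 were higher, or 26.7%, and 2 lower, against 8.81% higher and 9.42% lower over all genes. Igtp, an interferon-inducible GTPase, had 78.4, 62.1 and 106 CPM in Cd44 KO livers, against 37.4, 43.1 and 30.1 CPM in WT livers (1.16 ± 0.22, edgeR adjusted p = 0.217, DESeq2 adjusted p = 0.000818). Igtp shares 162 exon bases with Irgm2 on the same strand, a gene with 6919 counts over the 6 libraries, and is uncertain for that reason. Cxcl10, a chemokine that draws T cells, went the other way, with 5.04, 5.65 and 4.52 CPM in Cd44 KO livers, against 16.6, 9.19 and 21.4 CPM in WT livers (−1.63 ± 0.30, edgeR adjusted p = 0.217, DESeq2 adjusted p = 0.000362). Cxcl10 shares 133 exon bases with Art3 on the opposite strand. Gbp3 and Iigp1, GTPases of the same response, had log2 fold changes of 0.65 ± 0.21 and 0.52 ± 0.24 (edgeR adjusted p = 0.277 and 0.412).

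**Figure D5:**
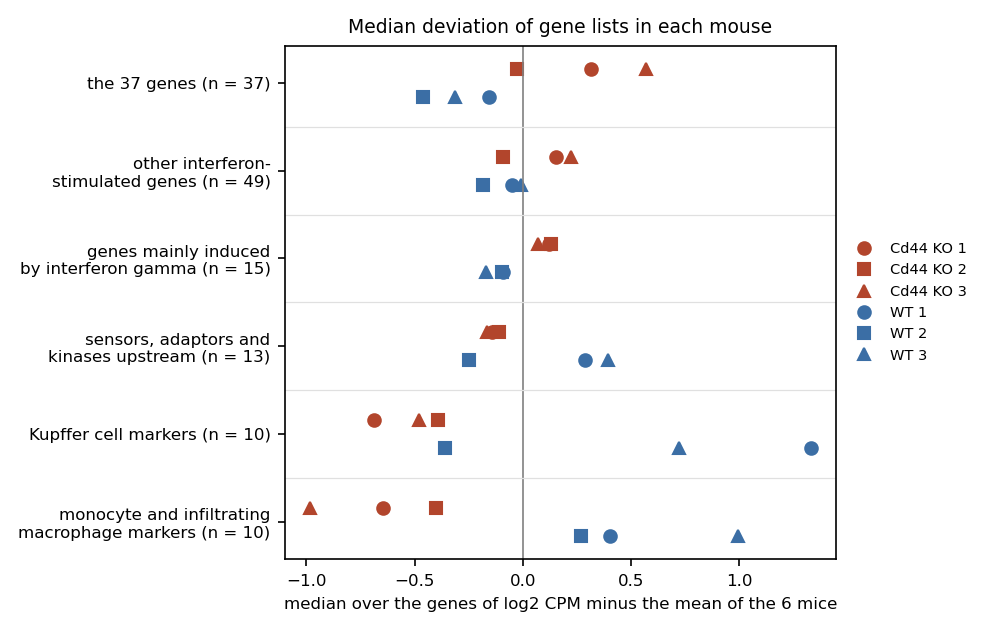
Median over each gene list of log2 CPM minus the mean of the 6 mice, with 1 point per mouse, Cd44 KO above WT in each row and n the number of genes tested. For the 37 genes the Cd44 KO mice lie at −0.03 to 0.57 and the WT mice at −0.46 to −0.15, while for the Kupffer cell markers WT mouse 2 lies beside the Cd44 KO mice.

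Macrophage markers were lower in the same Cd44 KO livers in which the interferon-stimulated genes were higher. All 10 Kupffer cell markers had lower means (median log2 fold change −1.30), with a summed level of 286 to 308 CPM in Cd44 KO livers and 318 to 923 CPM in WT livers. WT mouse 2, the WT mouse with the lowest median of the 37 genes, had the 318 CPM. All 10 markers of monocytes and infiltrating macrophages were lower too (median −1.29), with summed levels of 77.8 to 112 CPM in Cd44 KO livers and 149 to 312 CPM in WT livers. WT mouse 3, in which Irf7, Rsad2 and Bst2 were highest, had the 312 CPM. Plasmacytoid dendritic cells are a strong source of type I interferon, and 2 of their 6 markers had enough counts to be tested, Siglech and Lair1, both with lower means in Cd44 KO livers. The 6 summed to 4.35 to 4.45 CPM in Cd44 KO livers and 5.67 to 9.51 CPM in WT livers, most of it Lair1, which other leukocytes also express. The other 4, Ccr9, Klk1, Cox6a2 and Pacsin1, were too low to test and had higher means in Cd44 KO livers, so the direction was not shared by the whole list. The 6 hepatocyte markers summed to 86400 to 108000 CPM in Cd44 KO livers and 80200 to 96800 CPM in WT livers, with the highest value in Cd44 KO mouse 3. Of the other marker lists, all 3 neutrophil, all 4 cholangiocyte and 5 of 6 stellate cell genes tested had lower means in Cd44 KO livers, and 4 of 6 sinusoidal endothelial and 3 of 4 B cell genes had higher ones; 1 of the T and NK cell genes was tested and had a lower mean. No marker of these lists was at 0 in all libraries. The part that cell composition had in the differences of interferon-stimulated genes was not tested.

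Cd44 itself had 1, 0 and 0 counts in the Cd44 KO libraries and 590, 175 and 568 counts in the WT libraries, so no library went against its label. The share of counts from mitochondrial genes was 4.73% to 6.04%. Whether same-numbered mice shared a litter, cage or day was not given.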

How the data were processed

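Liver poly(A) RNA of 6 mice, 3 Cd44 KO and 3 WT, was copied with random hexamers, and the labels' protocols describe no step that marks strand. The values deposited by the authors are read counts for each Ensembl gene, with no normalisation. Per the submitters' processing notes the tools were featureCounts 1.5.0-p3, HISAT2 2.0.5 and StringTie 1.3.3b, and the build was GRCm38.p6; neither a strand nor a multi-mapping setting was given in the sources used here. Of 54532 gene rows, 54495 matched GENCODE M21; 150 unnamed models, 0.273% to 0.509% of a library's counts, were left out of library sizes and tests.

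Counts were filtered with filterByExpr (14145 genes kept), scaled by TMM and tested in R 4.3.3 with edgeR 4.0.16 (robust quasi-likelihood, Benjamini-Hochberg over all genes, threshold 0.05; common biological coefficient of variation 0.237). Standard errors were taken as the size of the log2 fold change over the square root of F. DESeq2 1.42.0 (13865 genes with an adjusted p), limma-voom 3.58.1, other filters and scalings, mouse number as a block, an older quasi-likelihood fit, the pairs Ifit3 with Ifit3b and Apol9a with Apol9b added together, and leaving out each library were alternatives; the older fit and DESeq2 without each library were chosen after seeing the data. Each library is a separate mouse per the labels, so mice are the replicates; with 3 against 3 an exact permutation test of 1 value cannot go below p = 0.1.

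The 37 genes, the pathway lists and the marker lists were chosen with earlier results of these data known, so their counts are descriptions, without a test of the list. Values of every mouse were given for the 12 members with the smallest p, for the highest CPM of other role groups and for members with a lower mean, and, where useful, for others; of each pathway list, for up to 3 genes with the smallest p and the one with the highest CPM; 1 gene that this rule names is not reported here. Other genes of those lists enter as counts and medians. Protein identity of near-copies was not computed, and the share of 50-base words that a transcript has in common with other genes' transcripts was used in its place.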

Additional observations from a re-analysis of the deposited data

How the results depend on the processing

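With RLE scaling, a filter of 1 CPM in 3 libraries, limma-voom, the block, DESeq2 or no filter, 34 of the 37 genes had a higher mean in Cd44 KO livers, with a median log2 fold change of 0.51 to 0.54. Genes called in all numbered 6 with no filter on low counts, 330 in DESeq2, 0 in limma-voom, 1 at a threshold of 0.01 and 1 in the older quasi-likelihood fit, against 2 as reported. Members called numbered 1 with no filter and 8 in DESeq2, against 0 as reported. Leaving out each library in turn gave 0 to 151 genes called in all and 0 to 1 members called. Members at an unadjusted p under 0.05 numbered 13 to 27. Members with a higher mean numbered 31 to 37 and those without overlap 19 to 27. The median was 0.43 to 0.68. DESeq2 called 1 to 13 members among 58 to 793 genes in all. Shares of all genes without overlap or at an unadjusted p under 0.05 are not given for these fits. Groups separate more easily with a mouse fewer, so these counts do not compare directly with those from all mice. Directions reversed for 9 of 222 single-gene values in these fits: Oas2 (−0.012 without WT mouse 2 to 0.51, and −0.0095 without Cd44 KO mouse 3), Oas3 (−0.29 without WT mouse 2 to 0.39, and −0.27 without Cd44 KO mouse 3), Mx1 (−0.060 without Cd44 KO mouse 3 to 0.41), Cmpk2 (−0.027 without WT mouse 2 to 0.49), Irf7 (−0.46 to 0.45 without WT mouse 3), Rsad2 (−0.80 to 0.39 without WT mouse 3) and Bst2 (−0.50 to 0.062 without WT mouse 3). Among 329 single-gene values under the other settings none reversed. They include the older quasi-likelihood fit and a non-robust one, which keep the same counts, filter and scaling and so could hardly change a direction. The cause of the reversals was not tested.

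Deviations of same-numbered mice had correlations across genes of −0.016, −0.018 and −0.01, and those of unlike-numbered mice ran from −0.065 to 0.079. With 3 mice centred on the mean of their genotype, these values cannot show whether the numbers pair the mice. With the replicate block 1 gene was called in all, 0 members were called and 23 members had an unadjusted p under 0.05. The share of all genes at that p with the block is not given.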
